A study of Mus musculus with 20 samples.

Results

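Glucocorticoid receptor signalling was described here through 6 genes in mouse bone marrow-derived macrophages: the receptor gene Nr3c1 and 5 genes that glucocorticoids are known to induce in many tissues, Fkbp5, Tsc22d3, Per1, Klf9 and Sgk1. They are 6 of the 24342 gene symbols in the deposited read count table, and for each the RefSeq transcript row with the highest total count was used. The 6 genes were chosen on their log2 CPM over the groups of these libraries, so their levels and changes are given as a description. No p-value is given for any of them, and where a member is said to have passed the adjusted threshold of the fit over all genes, that too is a description. CPM here is a gene's read count relative to the library's total over the genes tested, with that total scaled by trimmed mean of M values (TMM). Bone marrow from C57BL/6 mice was cultured for 7 to 8 days with 15% L929-conditioned medium, which supplies M-CSF, and received either 1 µM SGC0946, a small-molecule inhibitor of the histone methyltransferase DOT1L, or its solvent DMSO throughout differentiation. LPS, the bacterial ligand of the TLR4 receptor, was applied at 10 ng/mL for 3 h to 3 cultures of each arm, and GW3965, an agonist of the liver X receptors, at 2 µM for 17 h to another 3 of each arm. A further 4 cultures of each arm had no stimulus. The deposited sample sheet names the mouse of each library, and mice 1 to 3 contributed to every group. No group received a glucocorticoid, per the labels, and what the medium held of these steroids was not measured. The age and sex of the mice were not used here.

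The glucocorticoid receptor is a steroid-activated transcription factor that waits in the cytoplasm in a complex with HSP90 and its co-chaperones, moves to the nucleus when it binds cortisol or corticosterone, and there activates some genes and represses others. In macrophages it is best known for restraining inflammatory genes. FKBP5 (FKBP51) is a co-chaperone that lowers the receptor's affinity for hormone and is itself induced by it, TSC22D3 (GILZ) is an anti-inflammatory leucine zipper protein, PER1 is a repressor of the circadian clock, KLF9 is a zinc finger transcription factor, and SGK1 is a kinase that acts on ion transport and on FOXO factors. Several of these genes also respond to signals other than glucocorticoids.

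In GRCm38 the 5 responsive genes lie at chr10:21882184-21999903 (Sgk1), chr11:69095108-69109965 (Per1), chr17:28398753-28486149 (Fkbp5), chr19:23141226-23168129 (Klf9) and chrX:140539528-140600522 (Tsc22d3). Promoter sequences are shown for the members whose window held a complete receptor motif or the clock motif, because 5 of the members are known targets of the receptor and Per1 is also a clock gene. RefSeq windows (GRCm38.p6, 250 bases before to 50 bases after each start site) were in the table for 5 of the 6 genes, with 1 window for Fkbp5, 3 for Tsc22d3, 2 for Per1, 1 for Klf9 and 6 for Sgk1. They were searched on both strands for the palindromic glucocorticoid response element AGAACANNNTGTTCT, for its core ACANNNTGT, which every full element also contains, and for the E-box CACGTG bound by CLOCK and BMAL1. The stretches below lie before the start site, run 5′ to 3′ on the gene's own strand, and carry the full element and the E-box in capitals. They cover chr10:21993640-21993739 (+ strand) for Sgk1, chr17:28486289-28486342 (- strand) for Fkbp5 and chr11:69098759-69098812 (+ strand) for Per1.
Sgk1: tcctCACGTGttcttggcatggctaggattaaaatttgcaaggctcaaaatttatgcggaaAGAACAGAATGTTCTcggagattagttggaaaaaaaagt
Fkbp5: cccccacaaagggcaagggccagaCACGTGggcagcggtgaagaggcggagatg
Per1: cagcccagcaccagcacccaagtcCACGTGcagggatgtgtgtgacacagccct
The full element began 189 bases before one of the annotated Sgk1 start sites, and the E-box of that window began 246 bases before it. In Fkbp5 the E-box began 169 bases before the start site, and in Per1 166 bases before it. Of all 32851 windows in the table, 3 held the full element (0.00913%), 2249 held its core (6.85%) and 2349 held the E-box (7.15%). The core was also found in another Sgk1 window. No window of Tsc22d3 or Klf9 held any of these letters. Among the 21 genes of a list of 28 other glucocorticoid-responsive genes that had a window, the full element was in 0, the core in 3 (Glul, Mt1, Txnip) and the E-box in 4 (Bcl6, Dusp1, Il1r2, Irs2).

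Total counts per library ran from 13940954 to 23105513, and from 8174951 to 13331945 in the transcript rows kept. Summed levels of 8 macrophage markers ran from 12100 to 20700 CPM over all libraries. Dot1l mRNA stood at 58.5 ± 3.86 CPM (SD, n = 4) in DMSO and 51.8 ± 9.64 CPM (SD, n = 4) in SGC0946 cells (adjusted p = 0.44, edgeR quasi-likelihood test), which does not check the labels, since the inhibitor acts on the protein. SGC0946 libraries of mice 2 and 4 stood apart from those of mice 1 and 3: the chi-square per gene was 5.12 between replicates 2 and 4 and 6.07 between 1 and 3, against 7.84 to 10.9 across. Replicate 2 also stood apart in the SGC0946+LPS (9.9 and 10.6 against 4.33) and SGC0946+GW3965 groups (10.9 and 14.4 against 6.16). The titles of DMSO replicates 1 to 3 and of all DMSO+GW3965 libraries carry the word reanalyzed, which in the GW3965 comparison of the arms cannot be told apart from the inhibitor. In these bulk samples, fewer cells of a type and less RNA per cell cannot be told apart.

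Per transcript length, Tsc22d3 was the most abundant of the 6 in DMSO cells, at 78.6 ± 1.69 RPKM (SD, n = 4), and the receptor gene followed at 23.8 ± 0.811 RPKM. Sgk1 stood at 13.3 ± 0.768, Klf9 at 5.54 ± 0.702, Per1 at 4.83 ± 0.465 and Fkbp5 at 2.85 ± 0.453 RPKM. After LPS the order was different. In DMSO+LPS cells Nr3c1 led with 38.4 ± 1.9 RPKM (SD, n = 3), before Sgk1 with 22.1 ± 0.97, Tsc22d3 with 5.01 ± 0.698, Fkbp5 with 2.91 ± 0.715, Klf9 with 0.898 ± 0.129 and Per1 with 0.34 ± 0.0956 RPKM. RPKM is scaled by library total without TMM.

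**Figure D1:**
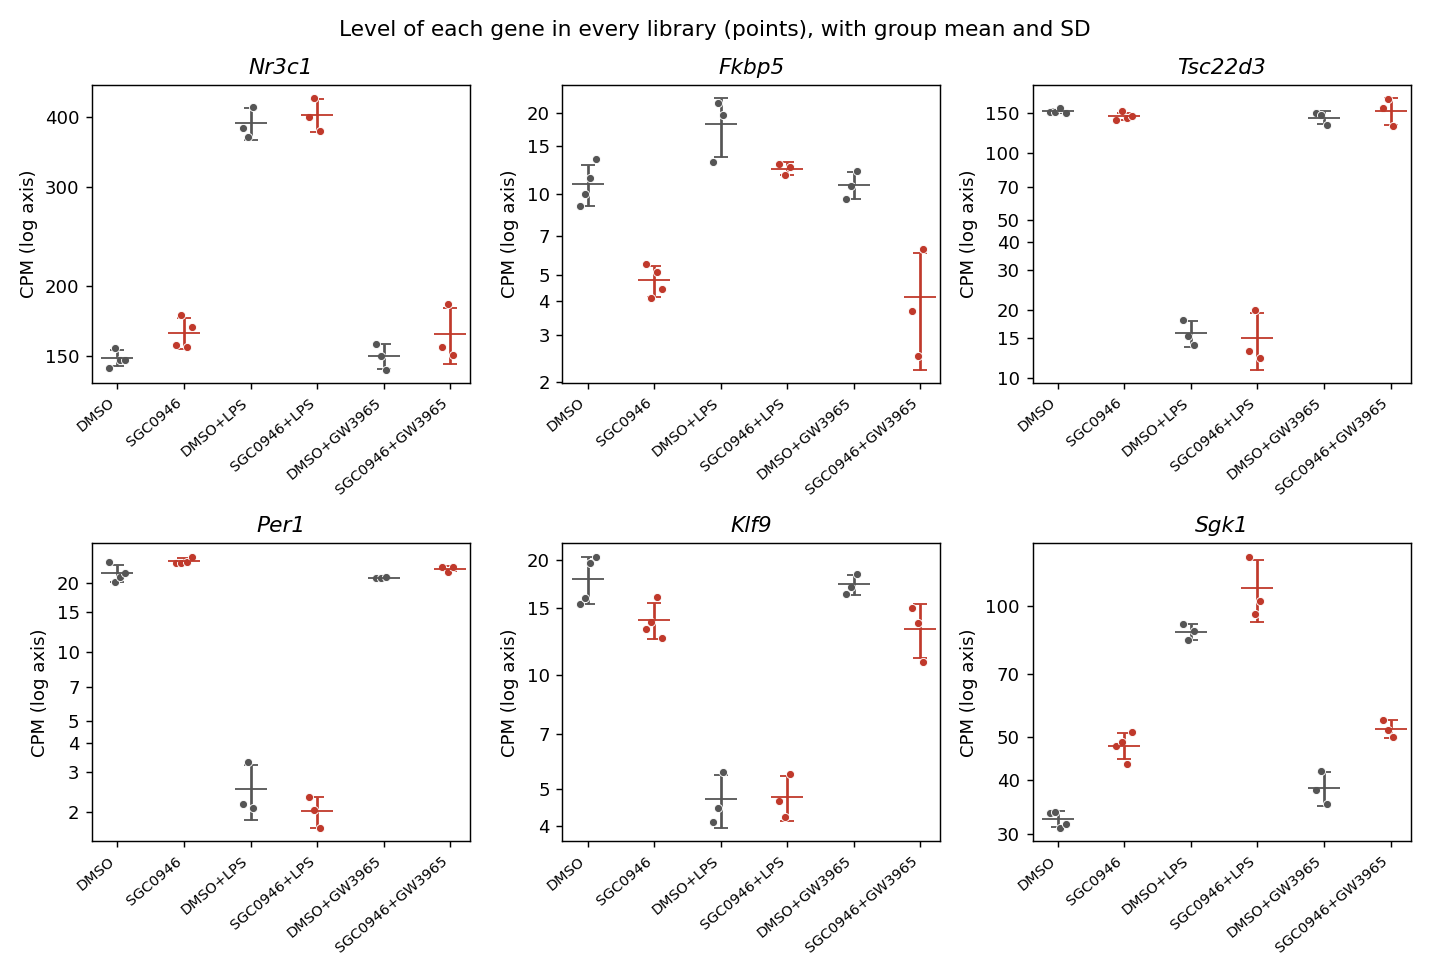
Level of each of the 6 genes in CPM (y axis, log scale) in the 6 groups (x axis); points are libraries, bars the group mean and SD, with DMSO groups in grey and SGC0946 groups in red. With LPS, Nr3c1 and Sgk1 were higher and Tsc22d3, Per1 and Klf9 lower in every library than in any unstimulated library of either arm.

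Nr3c1, the receptor gene, was at a high level in all 20 libraries and higher after LPS. It stood at 143, 155, 148 and 148 CPM in the DMSO libraries (replicates 1 to 4) and at 383, 369 and 418 CPM in the DMSO+LPS libraries. In the SGC0946 arm it stood at 157, 178, 156 and 169 CPM without stimulus and at 401, 432 and 378 CPM with LPS. No LPS library reached down to any other library. The LPS change was a log2 of 1.39 ± 0.07 (SE) in the DMSO arm, or 2.62-fold, and 1.29 ± 0.07 in the SGC0946 arm, or 2.44-fold. After GW3965 the level was 158, 150 and 142 CPM in the DMSO arm and 156, 186 and 151 CPM in the SGC0946 arm. In order of mean level the groups were SGC0946+LPS, DMSO+LPS, SGC0946, SGC0946+GW3965, DMSO+GW3965 and DMSO, and the only neighbours in that order whose libraries did not overlap were DMSO+LPS and SGC0946. The unstimulated SGC0946 libraries lay just above the DMSO ones without overlap, with a log2 difference of 0.15 ± 0.07 that did not pass the adjusted threshold.

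Fkbp5, the co-chaperone, was the member that differed most between the inhibitor arms. Its level was 8.98, 9.94, 11.4 and 13.4 CPM in the DMSO libraries and 5.47, 4.1, 5.15 and 4.42 CPM in the SGC0946 libraries. With GW3965 it was 9.58, 10.7 and 12.1 CPM in the DMSO arm and 3.68, 2.5 and 6.24 CPM in the SGC0946 arm. The arms did not overlap in either condition, with all SGC0946 values on the low side. The log2 difference was -1.20 ± 0.19 without stimulus (0.436-fold) and -1.40 ± 0.23 with GW3965 (0.38-fold). Set against DMSO replicate 4 alone, the DMSO library whose title lacks the word reanalyzed, the difference was -1.49. Without SGC0946 replicates 2 and 4 it was -1.04.

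LPS moved Fkbp5 upwards in both arms. The DMSO+LPS libraries stood at 13.1, 21.6 and 19.5 CPM and the SGC0946+LPS libraries at 12.9, 11.7 and 12.6 CPM, which again did not overlap. The log2 difference between the arms under LPS was -0.55 ± 0.21 and did not pass the threshold. The LPS change was 0.73 ± 0.19 in the DMSO arm, where the lowest LPS library overlapped the highest unstimulated one, and 1.38 ± 0.22 in the SGC0946 arm, where groups did not overlap. In the DMSO arm this change rested on the scaling: with library totals and no TMM it was 0.00 and did not pass. Against DMSO replicate 4 alone it was 0.44, a value that rests on 1 unstimulated library whose spread is taken from the other groups. Its value in the SGC0946 arm was 0.64 with library totals and passed. The highest mean was that of DMSO+LPS, followed by SGC0946+LPS, DMSO, DMSO+GW3965, SGC0946 and SGC0946+GW3965; SGC0946+LPS overlapped DMSO, DMSO overlapped DMSO+GW3965, and the 2 lowest groups overlapped each other. Between 29 and 203 reads per library lay behind these values.

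Tsc22d3, which encodes GILZ, was far lower after LPS. Its level was 151, 152, 158 and 150 CPM in DMSO libraries and 18, 15.4 and 14 CPM in DMSO+LPS libraries. SGC0946-treated cells had 140, 153, 143 and 145 CPM without stimulus and 13.1, 20 and 12.3 CPM with LPS. The LPS and unstimulated libraries were far apart in both arms, with 72 to 166 reads in each LPS library. The LPS change was -3.27 ± 0.12 (0.103-fold) in the DMSO arm and -3.24 ± 0.12 (0.106-fold) in the SGC0946 arm. With GW3965 the level was 150, 146 and 132 CPM in the DMSO arm and 157, 172 and 131 CPM in the SGC0946 arm, which overlapped. The 4 groups without LPS had means between 143 and 153 CPM and each overlapped its neighbour in order of level, as did the LPS groups at 15.8 and 15.1 CPM.

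Per1, the clock repressor, followed the same direction as Tsc22d3. It stood at 24.6, 20.2, 21.3 and 22.1 CPM in DMSO libraries and at 2.18, 3.3 and 2.08 CPM in DMSO+LPS libraries. Levels in the SGC0946 arm were 24.4, 24.5, 24.6 and 26 CPM without stimulus and 2.32, 2.04 and 1.71 CPM with LPS. The LPS groups overlapped each other and lay far below all other groups, on 10 to 31 reads per library. The LPS change was -3.09 ± 0.13 (0.117-fold) in the DMSO arm and -3.59 ± 0.14 (0.0829-fold) in the SGC0946 arm. With GW3965 the level was 21.1, 20.9 and 21.2 CPM in the DMSO arm and 23.4, 22.4 and 23.5 CPM in the SGC0946 arm, without overlap but with a log2 difference of only 0.13 ± 0.09. In order of mean level SGC0946 came first, without overlap with SGC0946+GW3965, which overlapped DMSO, which overlapped DMSO+GW3965.

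Klf9, the zinc finger factor, was lower after LPS and, to a smaller degree, lower in the SGC0946 arm without LPS. Its level was 15.4, 15.9, 19.7 and 20.4 CPM in DMSO libraries and 4.09, 4.47 and 5.54 CPM in DMSO+LPS libraries. With SGC0946 it was 13.2, 13.8, 16 and 12.5 CPM without stimulus and 4.64, 4.21 and 5.47 CPM with LPS. LPS libraries lay below all others. The LPS change was -1.93 ± 0.16 (0.263-fold) in the DMSO arm and -1.55 ± 0.16 (0.342-fold) in the SGC0946 arm. With GW3965 the level was 16.3, 17 and 18.4 CPM in the DMSO arm and 15, 13.7 and 10.8 CPM in the SGC0946 arm. The arms differed by -0.37 ± 0.12 without stimulus, where their libraries overlapped, by -0.38 ± 0.14 with GW3965, where they did not, and by 0.01 ± 0.20 with LPS. The means fell in the order DMSO, DMSO+GW3965, SGC0946, SGC0946+GW3965, SGC0946+LPS and DMSO+LPS; DMSO overlapped DMSO+GW3965, the SGC0946 groups without LPS overlapped each other, and so did the LPS groups.

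Sgk1, the kinase gene, was higher with LPS and higher in the SGC0946 arm in each condition. Its level was 33.6, 33.7, 31 and 31.7 CPM in DMSO libraries and 47.9, 48.7, 43.5 and 51.4 CPM in SGC0946 libraries. With LPS it was 91.2, 83.7 and 87.6 CPM in the DMSO arm and 130, 96 and 103 CPM in the SGC0946 arm. With GW3965 it was 37.8, 41.8 and 35.1 CPM in the DMSO arm and 54.9, 51.9 and 50.1 CPM in the SGC0946 arm. In all 3 conditions the lowest SGC0946 library lay above the highest DMSO library. The difference between the arms was 0.56 ± 0.08 (1.47-fold) without stimulus, 0.45 ± 0.09 (1.37-fold) with GW3965 and 0.33 ± 0.09 (1.26-fold) with LPS. Under LPS it rested partly on SGC0946+LPS replicate 1, the library at 130 CPM, without which it was 0.18 and no longer passed. The LPS change was 1.43 ± 0.09 (2.69-fold) in the DMSO arm and 1.20 ± 0.08 (2.30-fold) in the SGC0946 arm. The GW3965 change in the DMSO arm was 0.23 ± 0.09, without overlap. In order of mean level the groups were SGC0946+LPS, DMSO+LPS, SGC0946+GW3965, SGC0946, DMSO+GW3965 and DMSO, and of neighbours only SGC0946+GW3965 and SGC0946 overlapped. The deposited table has 6 Sgk1 rows, 3 Tsc22d3 rows and 2 Per1 rows that share nearly all reads, so isoforms, and the start site with the full response element, cannot be told apart. In the GENCODE vM21 annotation no exon of another gene overlaps those of the 6 genes.

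The LPS comparisons touched most of the transcriptome, and the 6 genes have to be read against that. All 6 members passed the adjusted threshold in the DMSO arm, 3 higher and 3 lower, beside 74.1% of the 12013 genes tested; since the members were selected on these groups, nothing is read from the count. In the SGC0946 arm all 6 passed as well, beside 74.6%. LPS also changed the make-up of the libraries. With library totals in place of TMM the median log2 change of all genes moved from -0.07 to -0.80 in the DMSO arm. In the SGC0946 arm it moved from -0.07 to -0.81. With library totals 88.7% of all genes were called in the DMSO arm, 18.6% of these higher. In the SGC0946 arm 88.9% were called, 18.5% of these higher. On that scale Nr3c1 was at 0.66 and Sgk1 at 0.70 in the DMSO arm, and Tsc22d3, Per1 and Klf9 at -4.00, -3.82 and -2.66. Values in the SGC0946 arm were 0.55 for Nr3c1, 0.46 for Sgk1, -3.99 for Tsc22d3, -4.33 for Per1 and -2.29 for Klf9. These 5 genes kept their directions and passed, and Fkbp5 in the DMSO arm, at 0.00, was the member value that no longer passed.

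**Figure D2:**
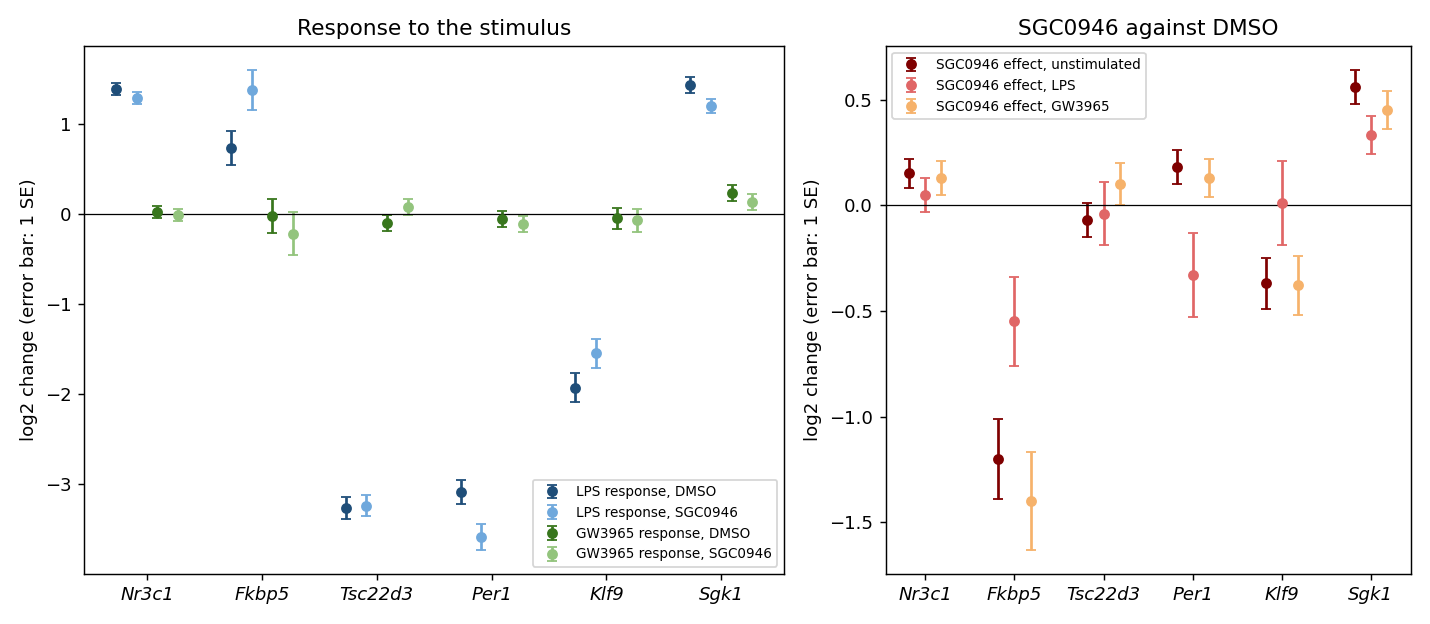
Log2 change of each gene with 1 SE, for the response to LPS and GW3965 in each arm (left) and for SGC0946 against DMSO in each condition (right). The LPS responses span -3.59 to 1.43, the GW3965 responses stay between -0.22 and 0.23, and on the right Fkbp5 is lowest at -1.40 and Sgk1 highest at 0.56.

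Between the inhibitor arms, Fkbp5 and Klf9 were lower and Sgk1 higher past the threshold in unstimulated cells. That is 3 of 6 members, beside 8.72% of all genes tested (12.3% with the mouse as a block). With LPS, Sgk1 alone passed, beside 7.13% (9.71% with the block). With GW3965 Fkbp5 and Sgk1 passed, beside 3.64% (437 genes, or 703 with the mouse as a block). The members were selected on these same groups, and these shares are not evidence about them. The Klf9 call in unstimulated cells ended with DESeq2 size factors, with library totals, with only the compared groups, with counts summed over transcripts, against DMSO replicate 4 alone, without SGC0946 replicates 2 and 4, and when DMSO replicate 3 or 4 or SGC0946 replicate 1, 2 or 4 was left out, at values from -0.56 to -0.29. The Sgk1 call under LPS ended when only the LPS groups were fitted, at 0.34, and when any 1 of the DMSO+LPS libraries or SGC0946+LPS replicate 1 was left out. The calls of Fkbp5 and Sgk1 in unstimulated and GW3965-treated cells were kept in each alternative run for them.

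Summed levels of neutrophil and dendritic cell markers moved with the arms. The summed level of 9 neutrophil markers was 29.4 to 38.3 CPM in DMSO and 1.91 to 7.63 CPM in SGC0946 libraries, with Mpo and Ly6g at 0 in all of the latter. With LPS it was 38.2 to 46.5 against 6.83 to 7.22 CPM, and with GW3965 24.6 to 37.7 against 2.72 to 4.66 CPM. The summed level of 5 dendritic cell markers was 11.5 to 18 CPM in DMSO and 20.9 to 31.7 CPM in SGC0946 libraries, 14.9 to 25.1 against 26.9 to 40.3 CPM with LPS, and 9.58 to 17.7 against 15.5 to 22.2 CPM with GW3965, where the arms overlapped. Of these 5 markers only 2 were tested. Itgax was called higher with SGC0946 without stimulus, and 0 were called with LPS or GW3965. The median log2 difference of the 2 tested was 0.71 without stimulus, 0.15 with LPS and -0.43 with GW3965, so the summed level does not describe each marker. The part of these cells in the values of Fkbp5, Klf9 and Sgk1 was not tested. Summed markers of T and NK cells stayed under 1 CPM in every library.

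**Figure D3:**
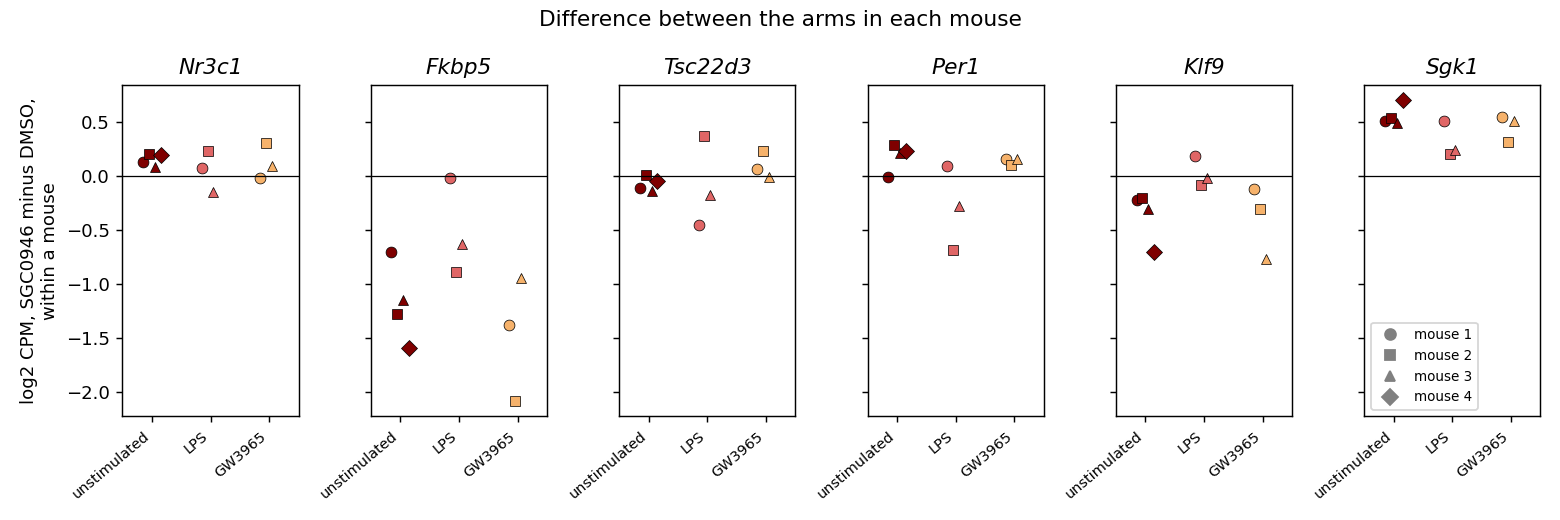
Difference of log2 CPM between the SGC0946 and the DMSO library of the same mouse (y axis) for each gene, without stimulus, with LPS and with GW3965 (x axis); symbols mark mice 1 to 4, and mouse 4 has no stimulated library. Sgk1 is above 0 in all 10 pairs and Fkbp5 below 0 in all 10, although mouse 1 under LPS is at -0.02 for Fkbp5.

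Within mice the same pattern was seen. The Fkbp5 difference ran from -1.60 to -0.71 over 4 mice without stimulus, from -2.09 to -0.95 over 3 mice with GW3965 and from -0.89 to -0.02 over 3 mice with LPS. For Sgk1 it ran from 0.49 to 0.70, from 0.31 to 0.54 and from 0.20 to 0.51. Klf9 was lower in 4 of 4 mice without stimulus and in 3 of 3 with GW3965, and in 2 of 3 with LPS. Nr3c1 was higher in 4 of 4 mice without stimulus, by 0.08 to 0.20, and in 2 of 3 with LPS (-0.15 to 0.23) and 2 of 3 with GW3965 (-0.02 to 0.30). Tsc22d3 had differences of both signs in each condition, from -0.14 to 0.01 in unstimulated cells, -0.46 to 0.37 with LPS and -0.01 to 0.23 with GW3965. Per1 was higher in 3 of 4 mice without stimulus (-0.01 to 0.28) and in 3 of 3 with GW3965 (0.10 to 0.15). With LPS it was higher in 1 of 3 (-0.69 to 0.09).

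With GW3965 the members stood close to their unstimulated levels. Their log2 changes ran from -0.10 to 0.23 in the DMSO arm and from -0.22 to 0.13 in the SGC0946 arm. Over all genes tested, 2.55% were called in the DMSO arm (306, or 531 with the mouse as a block) and 2.42% in the SGC0946 arm. The widest changes among the members were those of Sgk1 at 0.23 ± 0.09 in the DMSO arm, where the libraries did not overlap, and of Fkbp5 at -0.22 ± 0.24 in the SGC0946 arm, where they did.

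The LPS changes of the arms can be set side by side as the difference of log2 changes, SGC0946 minus DMSO, given with its SE as a description. It was 0.65 ± 0.29 for Fkbp5, -0.50 ± 0.22 for Per1 and 0.38 ± 0.23 for Klf9. For Sgk1 it was -0.23 ± 0.12, for Nr3c1 -0.10 ± 0.10 and for Tsc22d3 0.03 ± 0.18. Of the 6 members 0 passed the adjusted threshold for this difference. Over all genes tested, 0.00832% were called for this difference and 0% for that of the GW3965 changes.

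The genes that make up the receptor pathway were described from a list of 22, of which 20 were tested. The enzymes that convert corticosterone, Hsd11b1, which regenerates the active steroid, and Hsd11b2, which inactivates it, had between 0 and 5 reads per library and were not tested. Nr3c2, the mineralocorticoid receptor that also binds corticosterone, was at 0.339 ± 0.156 CPM in DMSO (SD, n = 4) and 0.797 ± 0.37 CPM in SGC0946 cells (adjusted p = 0.158, edgeR). With SGC0946 in unstimulated cells 2 of the 20 fell and 0 rose (1 fell with library totals), beside 8.72% called over all genes: Fkbp4, the co-chaperone FKBP52 that favours receptor transport, went from 39 to 31.4 CPM (log2 -0.31 ± 0.09, adjusted p = 0.0308), and Abcb1b, a drug and steroid exporter, from 70.6 to 58.3 CPM (-0.28 ± 0.06, adjusted p = 0.0066). The median change of the list was 0.01, beside 0.00 over all genes. The chaperones that hold the receptor differed little between the arms, with Hsp90ab1 at 771 and 797 CPM (adjusted p = 0.576) and Hsp90aa1 at 28.7 and 27.2 CPM (adjusted p = 0.745). With LPS the related exporter Abcb1a was higher in the SGC0946 arm, at 23.5 against 15.7 CPM (0.58 ± 0.13, adjusted p = 0.0113). That was 1 of 20 (1 higher and 2 lower with the mouse as a block), and with GW3965 edgeR called 0 (3 at an unadjusted p under 0.05, 1 by DESeq2 and 0 by limma-voom). Over all genes tested, 7.13% were called with LPS and 3.64% with GW3965.

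With LPS in the DMSO arm 13 of the 20 pathway genes rose and 5 fell, beside 74.1% called over all genes, with a median of 0.29 beside -0.07 over all genes. With library totals 2 rose and 11 fell, beside 88.7% of all genes called, 18.6% of these higher. The balance of directions thus rested on the scaling. Stip1, the HOP co-chaperone that links HSP70 to HSP90, rose from 62.9 to 200 CPM (1.67 ± 0.07, adjusted p = 3.31e-15). Smarca4, the BRG1 remodeller, rose from 170 to 288 CPM (0.76 ± 0.05, adjusted p = 3.14e-12), and Hsp90aa1 rose from 28.7 to 51.1 CPM (0.83 ± 0.13, adjusted p = 6.24e-06). H6pd, which supplies the cofactor of HSD11B1, fell from 43.9 to 23 CPM (-0.94 ± 0.10, adjusted p = 4.24e-08). These 4 kept their direction with library totals, although Smarca4 at 0.03 and Hsp90aa1 at 0.10 then no longer passed. With SGC0946 present, 12 rose and 5 fell, beside 74.6% called over all genes. With library totals it was 2 and 13, beside 88.9% of all genes called, 18.5% of these higher.

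A further 28 genes known as glucocorticoid-responsive, none of them among the 6, were followed in the same way, and 26 could be tested. With LPS in the DMSO arm 14 rose and 9 fell, beside 74.1% called over all genes (median 0.67, beside -0.07 over all genes). With library totals 11 rose and 11 fell, beside 88.7% of all genes called, 18.6% of these higher. The risers were led by genes that LPS is also known to induce: Nfkbia, the NF-kB inhibitor, from 40.8 to 1250 CPM (4.94 ± 0.07, adjusted p = 1.16e-22), Zfp36, the mRNA-destabilising factor TTP, from 83.9 to 710 CPM (3.08 ± 0.07, adjusted p = 4.49e-20), and Cebpd, a C/EBP transcription factor, from 13.5 to 182 CPM (3.75 ± 0.12, adjusted p = 2.12e-17). Dusp1, the MAP kinase phosphatase, rose from 7.19 to 26.4 CPM (1.88 ± 0.20, adjusted p = 2.11e-08), and Anxa1, the anti-inflammatory annexin, from 759 to 1760 CPM (1.21 ± 0.10, adjusted p = 5.86e-10). The genes that fell with Tsc22d3, Per1 and Klf9 included Sesn1, a stress-induced inhibitor of mTORC1 signalling, from 427 to 7.09 CPM (-5.90 ± 0.12, adjusted p = 5.74e-21), Irs2, the insulin receptor substrate, from 9.58 to 0.589 CPM (adjusted p = 5.45e-12), and Ddit4 (REDD1), another inhibitor of mTORC1, from 7.37 to 0.37 CPM (adjusted p = 2.57e-10), the latter pair on too few reads after LPS for a fold. Cd163, the haemoglobin scavenger receptor, fell from 18.8 to 4.79 CPM (-1.99 ± 0.16, adjusted p = 3.98e-10), and Glul, glutamine synthetase, from 203 to 106 CPM (-0.94 ± 0.09, adjusted p = 6.26e-09). The genes named kept their direction with library totals. Of the same 26, 13 rose and 11 fell in the SGC0946 arm, beside 74.6% called over all genes. With library totals it was 11 and 12, beside 88.9% of all genes called, 18.5% of these higher.

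**Figure D4:**
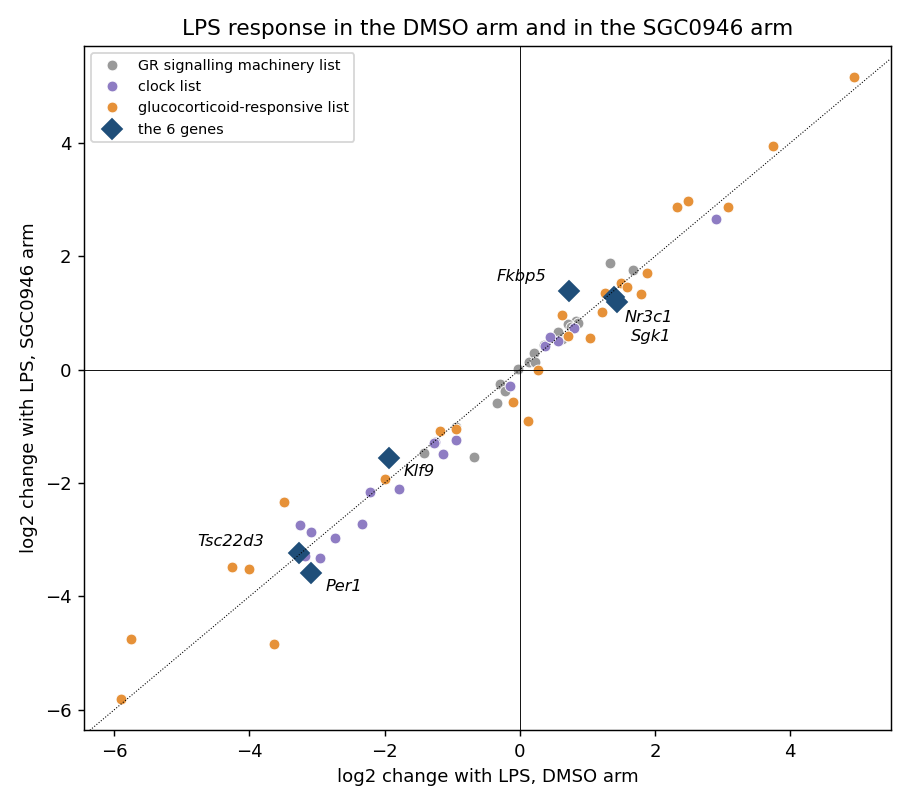
Log2 change with LPS in the DMSO arm (x axis) and in the SGC0946 arm (y axis) for the 6 genes (diamonds) and for tested genes of the receptor pathway, clock and glucocorticoid-responsive lists (circles); the dotted line marks equal change. Fkbp5 lies above the line at 0.73 and 1.38, Per1 below it at -3.09 and -3.59, and the 6 genes are split into 3 higher and 3 lower.

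Between the inhibitor arms the same 26 genes were compared in each condition. Without stimulus 3 rose and 3 fell with SGC0946, or 6 of 26 beside 8.72% of all genes, with a median of -0.01. Glul rose from 203 to 285 CPM (0.49 ± 0.08, adjusted p = 0.000501), Thbs1, thrombospondin, from 87.6 to 177 CPM (1.02 ± 0.26, adjusted p = 0.015), and Cdkn1c, the cell cycle inhibitor p57, from 9.3 to 15 CPM (0.69 ± 0.20, adjusted p = 0.0345). Sesn1 fell from 427 to 319 CPM (-0.42 ± 0.07, adjusted p = 0.000711), Mt1, a metallothionein, from 96.8 to 76.8 CPM (-0.34 ± 0.10, adjusted p = 0.0319), and Nfkbia from 40.8 to 34.3 CPM (-0.25 ± 0.07, adjusted p = 0.0213). A fit against DMSO replicate 4 alone leaves 1 unstimulated DMSO library, so calls of the list are not counted from it. Without SGC0946 replicates 2 and 4 there were 3 calls, while those over all genes went from 1048 to 321. Leaving out 1 library gave 2 to 6, beside 578 to 1099 over all genes. The list count was 3 or fewer without DMSO replicate 3, DMSO replicate 4, SGC0946 replicate 3 or SGC0946 replicate 4. The summed neutrophil and dendritic cell marker levels given above moved with these groups too.

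Under LPS 1 rose with SGC0946, Glul (0.39 ± 0.10, adjusted p = 0.0201), and 2 fell, Zfp36 from 710 to 560 CPM (-0.34 ± 0.07, adjusted p = 0.00468) and Rhob, a small GTPase, from 385 to 310 CPM (-0.31 ± 0.08, adjusted p = 0.023). With GW3965, Glul rose from 188 to 250 CPM (0.42 ± 0.09, adjusted p = 0.0146) and Sesn1 fell from 381 to 305 CPM (-0.32 ± 0.08, adjusted p = 0.0324). Neither of these last calls held when only the GW3965 groups were fitted, and leaving out 1 library gave 0 to 2 calls. Over all genes tested, 7.13% were called for SGC0946 under LPS and 3.64% under GW3965. GW3965 itself raised Mertk, an engulfment receptor, from 130 to 176 CPM in the DMSO arm (0.44 ± 0.11, adjusted p = 0.0396) and lowered Cd163 from 18.8 to 11.9 CPM (-0.66 ± 0.13, adjusted p = 0.00854) and Nfkbia from 40.8 to 33.7 CPM (-0.27 ± 0.07, adjusted p = 0.0458). Those 3 calls of the 26 became 1 when any library of these groups was left out and 8 when only these groups were fitted. Over all genes tested, 2.55% were called for GW3965 in the DMSO arm and 2.42% in the SGC0946 arm. In the SGC0946 arm Mertk rose from 143 to 196 CPM (0.46 ± 0.11, adjusted p = 0.033), while Cd163 fell from 17.6 to 10.5 CPM (-0.75 ± 0.14, adjusted p = 0.00368) and Thbs1 from 177 to 77.5 CPM (-1.19 ± 0.29, adjusted p = 0.0278).

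The receptor is also known for repressing inflammatory genes, and 12 such genes were followed. All 12 rose with LPS in both arms, under TMM and library totals alike, with medians of 9.08 in the DMSO and 8.82 in the SGC0946 arm. Over all genes tested, 35.4% were called higher in the DMSO arm and 35.8% in the SGC0946 arm. These are genes that LPS is also known to induce, so nothing about the receptor is read from the count. Tnf went from 7.19 to 2660 CPM in the DMSO arm (8.53 ± 0.17, adjusted p = 6.28e-21) and from 5.17 to 2400 CPM in the SGC0946 arm (8.88 ± 0.17, adjusted p = 4.88e-21). Between the arms edgeR called 0 of the 12 in unstimulated cells (6 at an unadjusted p under 0.05, 1 by DESeq2 and 0 by limma-voom), 0 with LPS (2, 0 and 1) and 0 with GW3965 (1, 0 and 0). With the mouse as a block 1 fell without stimulus, and 1 rose and 1 fell with LPS. GW3965 itself raised 1 and lowered 1 of the 12 in the DMSO arm (median -0.13), beside 2.55% called over all genes. In the SGC0946 arm it raised 2 and lowered 2 (median -1), beside 2.42%. There DESeq2 called 5 and limma-voom 2.

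Per1 belongs to the circadian clock, so 19 tested clock genes were set beside it. With LPS in the DMSO arm 5 rose and 13 fell, beside 74.1% called over all genes. The median was -1.27, beside -0.07 over all genes. With library totals 1 rose and 17 fell, beside 88.7% of all genes called, 18.6% of these higher. Per2, the paralog of Per1, fell from 1.5 to 0.127 CPM (adjusted p = 5.04e-05, on too few reads for a fold), and Nr1d1, the repressor REV-ERBalpha, fell from 7.68 to 0.819 CPM (-3.25 ± 0.26, adjusted p = 2.15e-10). Dbp, an output factor of the clock, fell from 35.4 to 4.12 CPM (-3.09 ± 0.49, adjusted p = 7.08e-06), Arntl, which encodes the activator BMAL1, fell from 12 to 5.02 CPM (-1.27 ± 0.13, adjusted p = 2.35e-08), and the related factor Tef fell from 105 to 15.7 CPM (-2.74 ± 0.09, adjusted p = 1.95e-17). Nfil3, the repressor E4BP4 that opposes DBP, rose from 8.97 to 67.1 CPM (2.90 ± 0.16, adjusted p = 2.63e-13). Nr1d2 was at 75 and 67.9 CPM (adjusted p = 0.142). In the SGC0946 arm 5 rose and 14 fell, beside 74.6% called over all genes. With library totals it was 1 and 17, beside 88.9% of all genes called, 18.5% of these higher. With SGC0946 in unstimulated cells 1 of the 19 was called, beside 8.72% of all genes. With the mouse as a block or with library totals 2 were called. The 1 was the repressor Bhlhe40 (DEC1), which rose from 49.7 to 72.3 CPM (0.54 ± 0.10, adjusted p = 0.00232). Under LPS SGC0946 had 0 calls of the 19, and under GW3965 1, again Bhlhe40 higher, beside 7.13% and 3.64% of all genes. Bhlhe40 itself was lower with LPS, at -2.33 in the DMSO and -2.73 in the SGC0946 arm.

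Paralogs of the members did not all follow them. With LPS in the DMSO arm Sgk3, the endosomal relative of Sgk1, rose from 81 to 424 CPM (2.39 ± 0.05, adjusted p = 6.22e-20), and Klf4, a macrophage Kruppel-like factor, rose from 8.93 to 31.4 CPM (1.81 ± 0.13, adjusted p = 2.77e-11) where Klf9 was lower. Klf2, its relative, fell from 20.3 to 6.65 CPM (-1.60 ± 0.17, adjusted p = 2.36e-08), and Tsc22d4, a relative of Tsc22d3, fell from 116 to 102 CPM (-0.19 ± 0.06, adjusted p = 0.00409). In unstimulated cells SGC0946 lowered Sgk3 from 81 to 71.8 CPM (-0.17 ± 0.05, adjusted p = 0.0395), while Sgk1 was higher, and raised Tsc22d1 from 40.6 to 51.2 CPM (0.33 ± 0.08, adjusted p = 0.0154) and Klf4 from 8.93 to 11.9 CPM (0.41 ± 0.13, adjusted p = 0.043). Of the 23 paralogs tested 3 rose and 3 fell with SGC0946, beside 8.72% called over all genes, with a median of -0.04, and with DESeq2 size factors or library totals 3 rose and 1 fell. Among 7 tested genes for partners and substrates of SGK1, Foxo3, a FOXO factor that SGK1 is known to phosphorylate, fell with LPS from 87.1 to 3.85 CPM (-4.50 ± 0.11, adjusted p = 2.56e-19), and Rictor, a subunit of the complex that activates SGK1, rose from 32.4 to 143 CPM (2.14 ± 0.08, adjusted p = 1.19e-16). Between the arms without stimulus edgeR called 0 of the 7 (3 at an unadjusted p under 0.05, 1 by DESeq2 and 1 by limma-voom), while 1 rose and 1 fell with the mouse as a block and 1 rose with library totals. Foxo1, another FOXO factor, was higher with SGC0946 under LPS, at 14.6 against 10.6 CPM (0.48 ± 0.10, adjusted p = 0.00614), and under GW3965, at 29.4 against 23.9 CPM (0.30 ± 0.08, adjusted p = 0.0457), each time as 1 of the 7. Over all genes tested, 7.13% and 3.64% were called in these conditions.

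The genes whose log2 CPM followed each member most closely over all 20 libraries are given as a description, and since the points split into LPS and other libraries the coefficients mostly carry that contrast. For Nr3c1 they were Birc2 (Pearson r = 0.996), Birc3 (0.995) and Chd9 (0.994). For Tsc22d3 they were Pla2g15, Hbp1 and Flcn (each 0.997), and for Per1 Mast3 (0.998), Cnr2 (0.996) and Mef2d (0.995). For Klf9 they were Sgpp1 (0.982), Iffo2 (0.979) and Cbfa2t3 (0.977), and for Sgk1 Crim1 (0.975), Clic5 (0.971) and Rras2 (0.968). Fkbp5 had the lowest values, with Pacsin2 at 0.935, Emilin2 at 0.933 and Lgals1 at 0.931.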

How the data were processed

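RNA from 20 libraries was sequenced from 1 end with 50-base reads, per the labels' protocols. The submitters' processing notes name STAR 2.5.2b, SAMtools 1.3.1 and the build mm10. How reads were assigned to transcripts, and whether by strand, is not given in the sources used. The authors deposited raw counts and RPKM for 35745 RefSeq transcripts, of which 35440 matched a symbol in the GRCm38.p6 RefSeq table; the 305 others held 1.166% of counts and were left out. Where a symbol had several transcripts, only the row with most reads over all libraries was used (57.35% of counts), since rows share reads. The deposited RPKM was used only to compare genes by length.

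The main test was that of edgeR 4.0.16 under R 4.3.3: filterByExpr (minimum count 10), TMM, 6 group means over all libraries, quasi-likelihood F tests for 9 contrasts, Benjamini-Hochberg adjustment over 12013 genes, adjusted p under 0.05. The biological coefficient of variation was 8.87%. Group values are mean ± SD and log2 changes carry the SE. The test was run on simulated data with genes changed only in the unstimulated SGC0946 group. That setting does not cover changes as wide as those with LPS. Alternatives used DESeq2 1.42.0, limma 3.58.1, other scalings, filters, counts summed over transcripts and left-out libraries; leaving out both SGC0946 replicates 2 and 4 was chosen after seeing the data.

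The deposited sample sheet ties replicate numbers to mice. Deviations from group means correlated with a median of 0.23 (0.06 to 0.55, 46 pairs) within mice and -0.12 between mice (120 pairs), so the mouse was also fitted as a replicate block. The members and gene lists were chosen with earlier results of these data known. Named genes were the members, up to 5 called genes per list and direction by smallest p, and genes set by role; some items are not reported here.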

Additional observations from a re-analysis of the deposited data

Results flagged for a closer look

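Among the groups with 4 libraries, 12 sets of values were examined for a library far from the others, and chance marks about 1 in 20. In SGC0946 cells the highest Per1 library, replicate 4 at 26 CPM, stood apart from the other 3 at 24.4 to 24.6 CPM. The distance is small beside the level of the gene.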

How the results depend on the processing

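With only the compared groups fitted, SGC0946 under LPS called 0 members, and of the responsive list SGC0946 under GW3965 called 0, GW3965 called 8 in the DMSO and 0 in the SGC0946 arm. Counts summed over transcripts gave 1 for SGC0946 under GW3965. Without SGC0946 replicates 2 and 4 the list had 3 calls for SGC0946 in unstimulated cells, beside 321 over all genes. For GW3965 in the SGC0946 arm it then had 1, beside 102 over all genes. Leaving out 1 library gave 0 to 1 members for SGC0946 under LPS, and list counts of 2 to 6 for SGC0946 in unstimulated cells, 0 to 2 under GW3965, and 1 for GW3965 in the DMSO arm. The causes were not tested, beyond the smaller number of samples.

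With library totals these LPS changes turned: Hsp90ab1 to -0.60 (DMSO arm) and -0.61 (SGC0946 arm), Csnk1d to -0.17 and -0.23, Clock to -0.36 and -0.32, Ndrg1 to -0.26 and -0.56, Nedd4l to -0.40 and -0.41, in the DMSO arm Bag1 to -0.02, Ncoa3 to -0.10 and Hspa8 to -0.10, in the SGC0946 arm Cry1 to 0.00 and Abcb1b to -0.08. With summed transcripts Tsc22d1 turned to 0.38 and 0.41.

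Genes called for SGC0946 in unstimulated cells numbered 1048, but 321 without SGC0946 replicates 2 and 4, and 578 to 1099 without 1 library. They were 1481 with the replicate block, 1236 by limma-voom and 1178 by DESeq2. Under LPS they were 856, or 432 to 796 without 1 library, 586 with only the compared groups and 1167 with the replicate block. Under GW3965 they were 437, but 164 with only the compared groups, 703 with the replicate block and 232 to 454 without 1 library. For GW3965 the DMSO arm had 306, against 520 by DESeq2, 888 with only these groups, 531 with the block and 122 to 343 without 1 library; the SGC0946 arm had 291, against 88, 102 without SGC0946 replicates 2 and 4, and 134 to 485. The difference of LPS responses had 1, against 11 unfiltered, 37 by DESeq2, 6 with the block and 2 without SGC0946 replicates 2 and 4. The replicate block changed no call of a member. Per1 under LPS rests on 10 to 31 reads per library, which limits its precision.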
